A study of Mus musculus with 16 samples.

Results

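The Bcl2 family survival genes were followed in cultured mouse osteoclasts, the cells that resorb bone. They are the survival genes Bcl2, Bcl2l1 and Mcl1, the pore-forming genes Bax and Bak1, and the BH3-only genes Bcl2l11, Bbc3, Bid, Bmf and Bad. The 10 members were chosen by name, as the rows of the deposited table that carry these symbols, out of 21936 rows in all. All 10 passed the filter on low counts that kept 12093 genes for testing.

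RNA was sequenced from 16 osteoclast cultures in 4 genotypes with 4 replicates each: WT, Ptprc KO, FLT3 ITD and FLT3 ITD Ptprc KO. Ptprc is the gene of CD45, a phosphatase on the surface of blood cells, and is knocked out in the second and the fourth genotype. FLT3 ITD is a knock-in allele that carries an internal tandem duplication in the Flt3 gene, which makes a constitutively active receptor tyrosine kinase known from acute myeloid leukaemia, and is carried by the third and the fourth genotype, the last being called the double mutant here. All groups share the C57BL/6J background and the culture: CD11b-positive bone marrow cells were kept in M-CSF (50 ng/ml) for 3 days and then with RANKL (20 ng/ml) as well until mature osteoclasts first appeared (day 3 to 5), when RNA was taken. The day of each culture, the age and sex of the mice, the zygosity of the alleles and whether replicates came from separate animals are unknown from the labels, so p-values measure only the spread between these cultures. The labels also mention the FLT3 inhibitor AC220, but no library is labelled with it. The design text gives a total of 24 samples, whereas its 4 groups of 4 add up to the 16 analysed here.

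Proteins of the Bcl2 family decide whether a cell opens its mitochondrial outer membrane and dies. Bcl2, Bcl-xL (from Bcl2l1) and Mcl1 hold Bax and Bak1 in check, and the BH3-only proteins Bim (from Bcl2l11), Puma (from Bbc3), Bid, Bmf and Bad bind the survival proteins or activate Bax and Bak1 directly. Osteoclasts are short-lived, and M-CSF, acting through its receptor Csf1r, is known to keep them alive in part by having Bim degraded, while Mitf is known to drive Bcl2 in this lineage. Much of this control acts on the proteins, which RNA levels do not show.

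The promoters of 4 members are shown, which moved together or against each other from culture to culture, as their levels below show. Other members, such as Bcl2 and Bbc3, did so too and their promoters are not shown. All 10 members matched the RefSeq promoter table of GRCm38.p6, with 18 windows of 300 bases, each from 250 bases before to 50 after an annotated start. For a gene with several windows, the window holding most GENCODE transcript starts is shown, 5′ to 3′ on the strand of the gene. Capitals mark matches to the 6 motifs searched on both strands.
Bcl2l1, chr2:152831679-152831978, minus strand: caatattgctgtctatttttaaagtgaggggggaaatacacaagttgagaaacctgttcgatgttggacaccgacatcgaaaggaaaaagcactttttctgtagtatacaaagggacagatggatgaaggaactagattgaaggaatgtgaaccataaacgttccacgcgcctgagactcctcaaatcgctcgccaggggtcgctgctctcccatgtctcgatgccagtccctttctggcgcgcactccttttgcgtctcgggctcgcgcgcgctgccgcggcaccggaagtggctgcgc
Bax, chr7:45466849-45467148, minus strand: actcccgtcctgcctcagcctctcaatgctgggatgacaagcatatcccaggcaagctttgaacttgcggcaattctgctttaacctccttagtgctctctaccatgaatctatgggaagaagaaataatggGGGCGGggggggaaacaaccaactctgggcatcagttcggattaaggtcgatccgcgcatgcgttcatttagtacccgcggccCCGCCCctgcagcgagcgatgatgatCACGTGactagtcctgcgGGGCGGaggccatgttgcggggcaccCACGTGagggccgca
Bcl2l11, chr2:128125788-128126087, plus strand: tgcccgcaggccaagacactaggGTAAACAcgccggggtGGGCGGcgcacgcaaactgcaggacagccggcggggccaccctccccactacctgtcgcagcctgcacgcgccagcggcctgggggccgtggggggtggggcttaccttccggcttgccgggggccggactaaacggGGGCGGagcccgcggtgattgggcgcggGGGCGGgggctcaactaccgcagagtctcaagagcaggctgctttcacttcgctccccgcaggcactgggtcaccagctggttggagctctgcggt
Bmf, chr2:118549637-118549936, minus strand: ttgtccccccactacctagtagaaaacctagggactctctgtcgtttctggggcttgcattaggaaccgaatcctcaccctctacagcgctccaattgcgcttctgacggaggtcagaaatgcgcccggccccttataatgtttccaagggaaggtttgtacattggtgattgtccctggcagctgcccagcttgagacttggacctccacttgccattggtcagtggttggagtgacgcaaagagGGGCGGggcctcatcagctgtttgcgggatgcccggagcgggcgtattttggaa

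The motifs were the STAT motif TTCNNNGAA, present in 8.3% of the 32851 windows in the table, the AP-1 motif TGANTCA (7.81%), the E-box CACGTG (7.15%), the FoxO motif GTAAACA (3.65%), the GC box GGGCGG (35.7%) and the CRE TGACGTCA (1.79%). The Bax window held 2 E-boxes, which begin 9 bases before and 35 bases after the annotated start, and 3 GC boxes. The Bcl2l11 window held 1 FoxO motif 227 bases before the start and 3 GC boxes. In the Bmf window 1 GC box was found, and the Bcl2l1 window held none of the 6 motifs. A match is a run of letters and says nothing of binding, which was not measured.

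In GENCODE for GRCm38, Bcl2 spans chr1:106538178-106714274 and Bcl2l1 chr2:152780668-152831728, both on the minus strand, and Mcl1 spans chr3:95658788-95663176 on the plus strand. Bax spans chr7:45461697-45466898 and Bak1 chr17:27019810-27029009, both on the minus strand. Bcl2l11 spans chr2:128126038-128162547 and Bbc3 chr7:16308393-16318205 on the plus strand, Bid chr6:120891930-120916853 and Bmf chr2:118528757-118549687 on the minus strand, and Bad chr19:6941861-6951899 on the plus strand. Values are sums over all exons of a gene, so the long and short forms of Bcl2l1 or Mcl1 and the isoforms of Bcl2l11 are not separated. Bax overlaps the annotated gene Gm45808 on its own strand, Bak1 overlaps Ggnbp1, Bid overlaps Bcl2l13 and Bad overlaps Gpr137 on the other strand. The kit marks strand, but whether counting used it is not stated, so the levels of Bak1, Bid and Bad are less certain. Strand would not separate Bax from Gm45808, so its level is less certain too. Bcl2 overlaps D630008O14Rik on the other strand and Gm37053 on its own, and Bid also overlaps Gm17812 and Gm44260. These have no row in the deposited counts.

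Library totals ran from 24211724 to 35773313 counts, and the counts of single members ranged from 93 (Bcl2 in WT replicate 1) to 27719 (Mcl1 in WT replicate 2). Levels are in CPM (counts scaled to the library total, with TMM library sizes) unless TPM, which is per length, is named. Ptprc, the targeted gene, was at 412 to 472 CPM in WT and 230.2 to 543 CPM in FLT3 ITD, against 30.8 to 45.8 CPM in Ptprc KO and 54.1 to 86.7 CPM in the double mutant. All 10 osteoclast markers were measured well above the filter, with a summed level of 8515 to 64329.9 CPM. All 7 macrophage markers were present in every group too, summing to 2729 to 5245 CPM in WT, 2508 to 5302 in Ptprc KO, 2821 to 5838 in FLT3 ITD and 2552 to 6506 in the double mutant. Most of this was Csf1r and Cd68, with means of 1584 and 1376 CPM over all libraries, whereas the other macrophage markers had means from 24.0 (Mertk) to 400 CPM (Adgre1). Summed markers were at most 138 CPM for neutrophils and 3.50 CPM for B cells. The 5 T cell markers summed to 0.130 to 46.5 CPM, nearly all of it Cd4 (up to 1348 counts), while Cd3e, Cd3d, Cd3g and Cd8a never exceeded 3 counts. The 5 dendritic cell markers, mostly Itgax (up to 12215 counts), summed to 31.2 to 57.8 CPM in WT, 22.3 to 40.4 in Ptprc KO, 18.5 to 156 in FLT3 ITD and 61.1 to 428 in the double mutant. FLT3 ITD replicates 1 and 3 were much closer to each other than any other pair within a group (chi-square per gene of 2.73, against 12.6 for the next closest). This is above the value of 1 that counting noise alone gives, but the labels do not say whether they are repeats of 1 culture, in which case FLT3 ITD would hold 3 independent replicates. With their counts summed, 0 members were called between genotypes (at most 0.131% of all genes) and 5 on the slope described below (38.8% of all genes). These counts of members were the same with both kept. FLT3 ITD replicate 2 stood apart by gene length: across genes, Spearman's rho between length and deviation from the mean of all libraries was -0.46, against -0.18 to 0.18 in the other 15 libraries. The -0.18 was FLT3 ITD replicate 4, the only other negative value, and the remaining libraries lay at 0.035 to 0.18. In bulk RNA, fewer cells of a type and less RNA per cell cannot be told apart.

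Mcl1 was by far the most abundant family member per length, with a mean of 761 ± 61.3 TPM (SD, n = 16). Bak1 followed with 203 ± 49.1 TPM and Bax with 137 ± 43.6 TPM. The BH3-only genes lay lower, from Bcl2l11 (41.1 ± 15.1 TPM) and Bad (40.4 ± 8.85) through Bid (31.1 ± 7.32) to Bmf (21.2 ± 13.1) and Bbc3 (21.0 ± 5.82). Bcl2l1 stood among them at 28.6 ± 18.3 TPM and Bcl2 was lowest at 3.33 ± 2.15 TPM. Between Bcl2l11 and Bad, between Bid and Bcl2l1, and between Bmf and Bbc3 the means differed by far less than the spread over libraries. Mcl1 made up 48.5% to 66.0% of the summed TPM of the 10 members in each library. Among the survival genes, Bcl2l1 was 5.69 to 14.0 times as high as Bcl2 per length in every library.

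**Figure D1:**
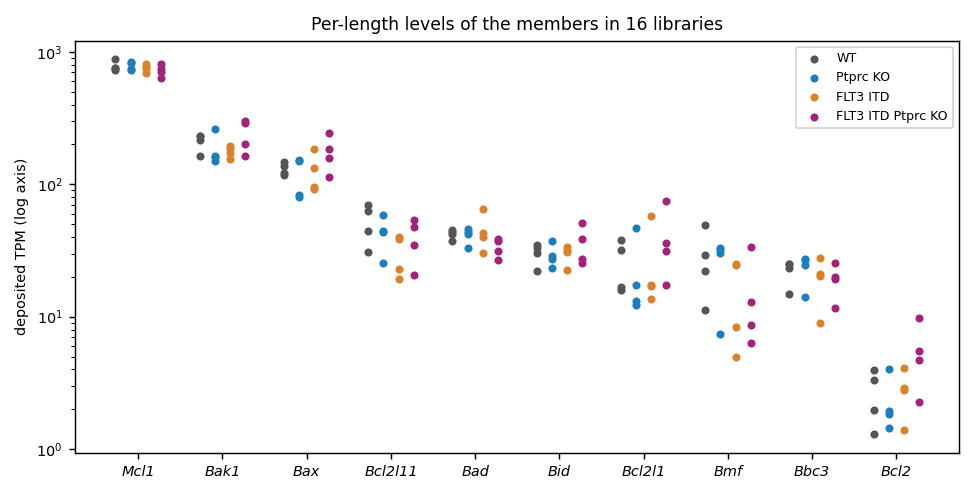
Levels per length of the 10 members in 16 libraries. The vertical axis is the deposited TPM on a log scale, each point is a library coloured by genotype, and members are ordered by their mean. Mcl1 lies at 631 to 877 TPM in all libraries, while Bcl2l1 and Bmf spread widely within each genotype.

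Bcl2 RNA, the founding survival gene of the family, was 2.19-fold higher in the double mutant than in WT, but the difference did not pass the test. In WT it was 3.22, 4.91, 9.28 and 9.99 CPM (replicates 1 to 4, the order used throughout), and in Ptprc KO 3.28, 5.52, 5.89 and 11.5 CPM. In FLT3 ITD it was 7.96, 4.59, 7.38 and 13.4 CPM, and in the double mutant 12.4, 28.0, 5.99 and 13.5 CPM. Double mutant replicate 2 was the highest of all libraries, and replicate 3 lay within the range of WT. The group means were 6.85 ± 3.30 CPM (SD, n = 4) in WT and 14.97 ± 9.28 CPM in the double mutant. The log2 fold change was 1.13 (SE 0.51) against WT (unadjusted p = 0.042, adjusted p = 0.601) and 1.19 (SE 0.51) against Ptprc KO (unadjusted p = 0.0332, adjusted p = 0.268). Without 1 library each, these values ran from 0.64 to 1.39 and from 0.70 to 1.60. With the resorption score described below as a covariate they were 0.36 and 0.27. Double mutant replicates 1, 2 and 4 scored 8.37, 8.71 and 8.40, below every library of the other genotypes (lowest 9.08). Score and double mutant genotype are thus partly confounded and cannot be fully told apart in that fit. Bcl2 lies on the same chromosome as Ptprc, 31.3 Mb away. For Ptprc KO against WT the log2 fold change of Bcl2 was -0.066 (SE 0.50), and a part of this position in the Bcl2 level was not tested.

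Bcl2l1 RNA, which encodes the survival protein Bcl-xL, varied several-fold inside every genotype and passed the test in no comparison of genotypes. It was 20.4, 21.1, 52.9 and 41.0 CPM in WT and 14.9, 26.1, 19.1 and 66.4 CPM in Ptprc KO. It was 24.0, 23.9, 23.8 and 95.2 CPM in FLT3 ITD and 47.5, 108, 23.5 and 37.2 CPM in the double mutant. A single library was high in Ptprc KO (replicate 4), in FLT3 ITD (replicate 4) and in the double mutant (replicate 2), and all 4 groups overlapped. Against WT, the log2 fold change was 0.30 (SE 0.61) in FLT3 ITD, -0.10 (SE 0.61) in Ptprc KO and 0.68 (SE 0.61) in the double mutant (adjusted p of 0.885, 1 and 0.642). The 95% interval for the double mutant was -0.65 to 2.01. Without FLT3 ITD replicate 4 the value for FLT3 ITD turned to -0.50.

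Mcl1 RNA, for the short-lived survival protein that blocks Bak1 and Bim, was the steadiest of the 10. It was 816, 735, 753 and 730.3 CPM in WT, 659, 916, 924 and 782 CPM in Ptprc KO, 833, 1000.5, 790.2 and 855 CPM in FLT3 ITD and 622, 817, 801 and 652 CPM in the double mutant. The highest library exceeded the lowest by 1.61-fold, and the ranges of all groups overlapped. The largest of its pairwise differences, double mutant against FLT3 ITD, was -0.27 (SE 0.14) on the log2 scale (adjusted p = 0.239).

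Bax, a pore-forming effector of death, was 57.2, 51.6, 67.9 and 55.1 CPM in WT and 60.7, 40.2, 42.1 and 73.2 CPM in Ptprc KO. In FLT3 ITD it was 44.2, 80.7, 44.3 and 101 CPM and in the double mutant 86.7, 78.7, 49.9 and 105 CPM. FLT3 ITD held both low libraries (replicates 1 and 3) and high ones (replicates 2 and 4), and 3 of 4 double mutant libraries were above all WT libraries. The log2 fold change of the double mutant was 0.47 (SE 0.29) against WT (adjusted p = 0.601) and 0.57 (SE 0.29) against Ptprc KO (adjusted p = 0.304).

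Bak1, the other pore-forming gene, was at 118 to 155 CPM in WT, 118 to 165 in Ptprc KO, 132 to 157 in FLT3 ITD and 128 to 200.5 in the double mutant. Its 2 highest libraries were double mutant replicates 1 (200.5 CPM) and 4 (197 CPM), followed by Ptprc KO replicate 1 (165 CPM). The same 3 libraries had the highest summed level of 12 cell-cycle genes, 3622, 2681 and 2003 CPM, against 481 to 1412 CPM in the rest, and the part of cell cycle in the Bak1 level was not tested. The double mutant differed from Ptprc KO by 0.34 (SE 0.17) (log2, adjusted p = 0.292).

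Bcl2l11, the gene of Bim, was 138, 156, 72.6 and 102 CPM in WT and 122, 112, 115 and 63.3 CPM in Ptprc KO. It was 95.3, 70.1, 95.6 and 55.8 CPM in FLT3 ITD and 81.2, 52.6, 125 and 102 CPM in the double mutant. All FLT3 ITD libraries were below WT replicates 1, 2 and 4, and 2 of the 4 were above WT replicate 3. The log2 fold change of FLT3 ITD against WT was -0.56 (SE 0.30) (unadjusted p = 0.0806, adjusted p = 0.605). In the double mutant it was -0.38 (SE 0.30) against WT (adjusted p = 0.616).

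Bmf, whose protein is known to respond to loss of cell attachment, had the largest standard deviation of log2 CPM of the 10 members (0.96) and ran from 9.62 to 69.1 CPM, a 7.14-fold range, beside 8.54-fold for Bcl2 and 7.21-fold for Bcl2l1. It was 69.1, 44.5, 16.8 and 33.0 CPM in WT and 45.2, 52.1, 51.3 and 11.9 CPM in Ptprc KO. In FLT3 ITD it was 37.9, 18.1, 39.4 and 9.62 CPM and in the double mutant 12.2, 10.5, 49.0 and 17.7 CPM. In Ptprc KO, 3 of the 4 libraries were close to each other and replicate 4 was far below them, while 3 of the 4 double mutant libraries were low and replicate 3 was high. The log2 fold change was -0.64 (SE 0.60) in FLT3 ITD and -0.87 (SE 0.61) in the double mutant, each against WT (adjusted p of 0.741 and 0.601).

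Bbc3, the p53-induced gene of Puma, was 14.8, 13.8, 9.45 and 14.96 CPM in WT and 15.01, 16.5, 18.1 and 9.36 CPM in Ptprc KO. It was 14.2, 16.5, 16.7 and 6.45 CPM in FLT3 ITD and 11.2, 7.57, 15.4 and 11.3 CPM in the double mutant. The lowest library was replicate 3 in WT, replicate 4 in Ptprc KO and in FLT3 ITD, and replicate 2 in the double mutant, and all groups overlapped. The largest difference of a pair, double mutant against Ptprc KO, was -0.37 (SE 0.30) (log2, adjusted p = 0.475). Bid, which links death receptors to the mitochondria once cleaved by caspase 8, ranged from 23.0 to 50.6 CPM over all libraries, the highest being double mutant replicate 1. Its log2 fold changes against WT were 0.24 (SE 0.18) in FLT3 ITD, 0.055 (SE 0.18) in Ptprc KO and 0.29 (SE 0.18) in the double mutant (adjusted p of 0.68, 1 and 0.601).

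Bad, whose protein is held inactive by growth factor signalling through Akt, was the member with the smallest p in the comparisons of genotype. It was 31.3, 30.7, 27.9 and 30.2 CPM in WT and 28.4, 37.4, 34.1 and 25.0 CPM in Ptprc KO. In FLT3 ITD it was 33.2, 64.3, 31.8 and 28.0 CPM and in the double mutant 25.8, 21.1, 28.3 and 21.7 CPM. FLT3 ITD replicate 2, which stood apart by gene length, was far above every other library. Of the double mutant libraries, replicate 3 alone was above the lowest FLT3 ITD library. The double mutant was lower than FLT3 ITD by a log2 fold change of -0.70 (SE 0.23) (unadjusted p = 0.00771, adjusted p = 0.117), which did not pass the threshold in edgeR, and the interaction was -0.76 (SE 0.32) (unadjusted p = 0.0321, adjusted p = 0.271). DESeq2 did call the difference from FLT3 ITD (adjusted p = 0.041), where it called 8.14% of all genes. Without FLT3 ITD replicate 4 edgeR called it too (-0.83, adjusted p = 0.0359), along with 14.7% of all genes. Without FLT3 ITD replicate 2 the edgeR value was -0.36 (adjusted p = 0.306), and on the deposited TPM, by limma on log2(TPM + 1), it was -0.37. In that TPM fit the median of all genes for this pair was 0.22, beside 0.027 in edgeR, so the 2 scales are offset. With the resorption score described below as a covariate in edgeR, the Bad value was -0.25, the smallest in size of 11 alternatives (-0.78 to -0.25). That score is partly confounded with the double mutant genotype.

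**Figure D2:**
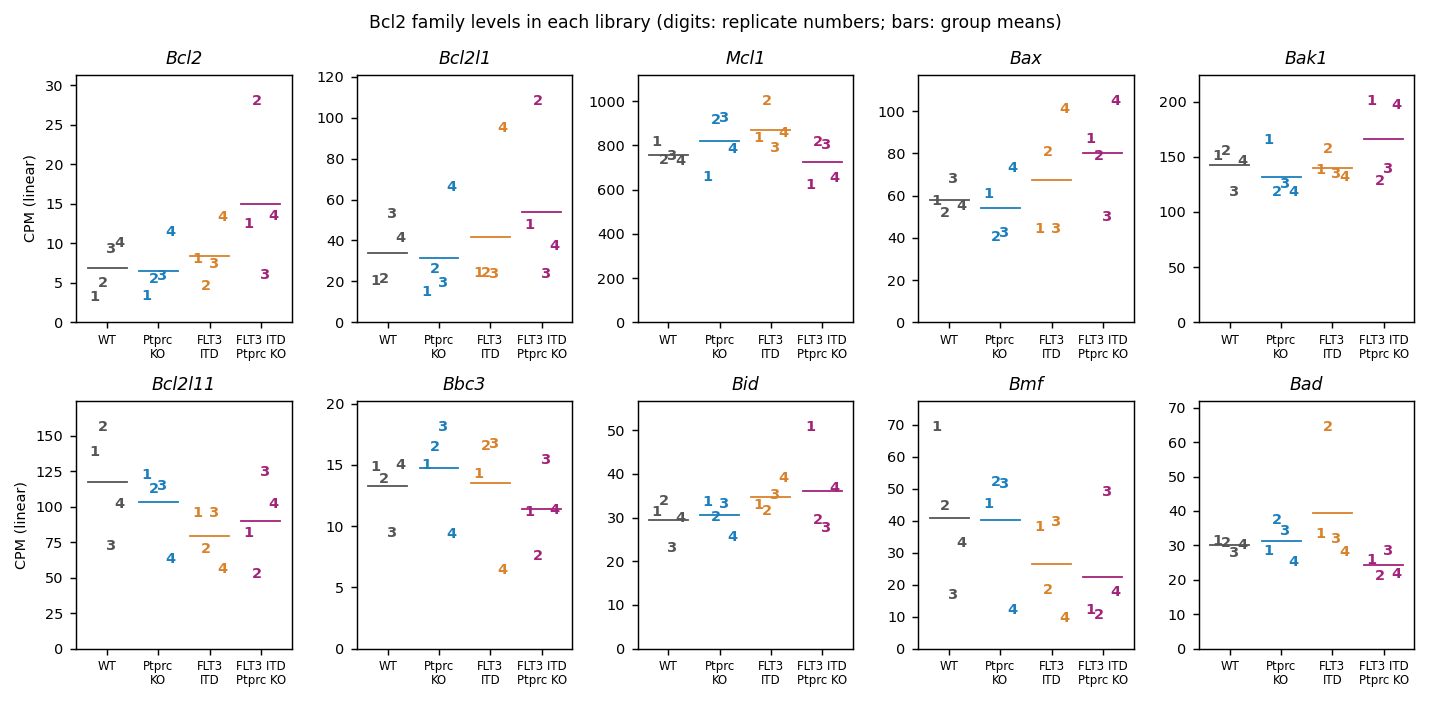
Level of each member in every library. The vertical axes are CPM on a linear scale from 0, digits are the replicate numbers, colours are the genotypes and bars are group means. For every member the ranges of the genotypes overlap, and replicate 4 of Ptprc KO and of FLT3 ITD stands apart for Bcl2l1 (66.4 and 95.2 CPM).

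Over the whole family, edgeR called 0 of the 10 members in each of the 5 pairs of genotypes at an adjusted p under 0.05. Few genes of any kind were called: 0.0413% of those tested for FLT3 ITD against WT, 0.0331% for Ptprc KO against WT and 0.108% for the double mutant against WT. The share was 0.00827% for the double mutant against FLT3 ITD and 0.091% for it against Ptprc KO. The interaction, which asks whether the effect of FLT3 ITD depends on Ptprc, called 0 members (0.00827% of all genes), and the test for any difference among the 4 genotypes called 0 (0.223% of all genes). The 3 comparisons against WT share the WT libraries, and the pairs with the double mutant share its libraries.

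At an unadjusted p under 0.05, edgeR counted 0 members for FLT3 ITD against WT (8.45% of all genes) and 0 for Ptprc KO against WT (0.843%). It counted 1, Bcl2, for the double mutant against WT (7.89%), 1, Bad, against FLT3 ITD (25.7%) and 1, Bcl2, against Ptprc KO (17.8%). The interaction gave 1, Bad (17.5%), and the test for any difference gave 0 (12.5%), its smallest p being 0.0531 for Bad. By adjusted p, DESeq2 called 1 member, Bad in the double mutant against FLT3 ITD (8.14% of all genes), and limma on TPM called 0 in each of these comparisons. No member had ranges that did not overlap in any of the 5 pairs, where 6.09% of all genes did for FLT3 ITD against WT, 1.41% for Ptprc KO against WT and 5.5% for the double mutant against WT, and 8.47% and 6.33% for it against FLT3 ITD and Ptprc KO. The median log2 fold change of the members was 0.21 for FLT3 ITD against WT, beside 0.037 for all genes tested, and -0.046 beside 0.017 for Ptprc KO against WT. It was 0.076 beside 0.053 for the double mutant against WT, 0.12 beside 0.027 against FLT3 ITD and 0.028 beside 0.045 against Ptprc KO. On the deposited TPM, where the median of all genes for FLT3 ITD against WT shifts to -0.21, Bcl2l1, Mcl1, Bax, Bbc3 and Bid have a negative value for FLT3 ITD against WT in place of a positive one.

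**Figure D3:**
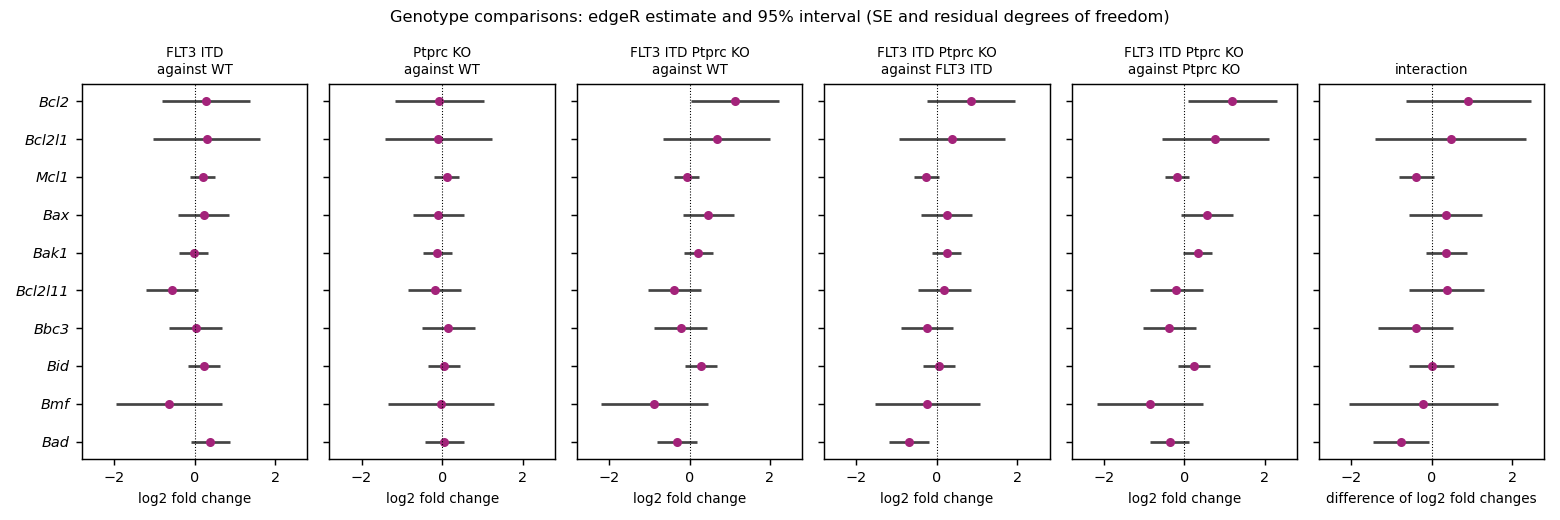
Log2 fold change of each member in the 5 pairs of genotypes and the interaction. Points are edgeR estimates and lines their 95% intervals. Intervals are widest for Bcl2l1 and Bmf and narrowest for Mcl1, and no value passed the adjusted threshold.

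Much of the spread of the members lay between cultures of the same genotype. The standard deviation of log2 CPM over the 16 libraries was 0.96 for Bmf, 0.85 for Bcl2l1 and 0.82 for Bcl2, beside 0.38 for the median gene tested, and 0.19 for Mcl1. The share of variance that lay between the genotype means ran from 9.9% for Bbc3 to 39.5% for Bad, beside 26.0% for the median gene. Means of few libraries differ by noise too, so part of such a share arises without any effect of genotype. A score of osteoclast state, the mean log2 CPM of 16 genes of bone resorption such as Ctsk and Acp5, ran from 8.37 (double mutant replicate 1) to 10.71 (Ptprc KO replicate 2). It was 9.76 to 10.06 in WT, 9.58 to 10.71 in Ptprc KO, 9.08 to 10.60 in FLT3 ITD and 8.37 to 10.07 in the double mutant. The slope of each member on this score was fitted with the genotype in the model, so it compares libraries of the same genotype, and is given per doubling of the score genes.

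Of the 10 members, 5 had a slope past the threshold, beside 41.2% of all genes tested, so that share is near the background. Bmf rose with a slope of 1.04 (SE 0.29) (adjusted p = 0.0117), Bbc3 with 0.55 (SE 0.14) (adjusted p = 0.00824) and Bad with 0.34 (SE 0.12) (adjusted p = 0.0363). Bax fell with -0.57 (SE 0.12) (adjusted p = 0.00195) and Bcl2l1 with -1.01 (SE 0.30) (adjusted p = 0.0169). All 3 that rose are BH3-only genes (20.7% of all genes were called upward), and those that fell are a pore-former and a survival gene (20.5% were called downward). The other slopes were -0.68 (SE 0.30) for Bcl2, 0.37 (SE 0.17) for Bcl2l11, 0.16 (SE 0.076) for Mcl1, -0.12 (SE 0.11) for Bak1 and -0.17 (SE 0.11) for Bid, with adjusted p of 0.0876, 0.101, 0.11, 0.391 and 0.261. Only for Bax did the call hold without each library in turn. Without FLT3 ITD replicate 4, the library with the lowest score of its genotype, Bax alone was called (1 of 10, beside 26.5% of all genes). Without Ptprc KO replicate 4, Bcl2l1 and Bad were no longer called (3 of 10, beside 32.7%), and without double mutant replicate 3, Bcl2l1 and Bmf were not (3 of 10, beside 32.1%).

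**Figure D4:**
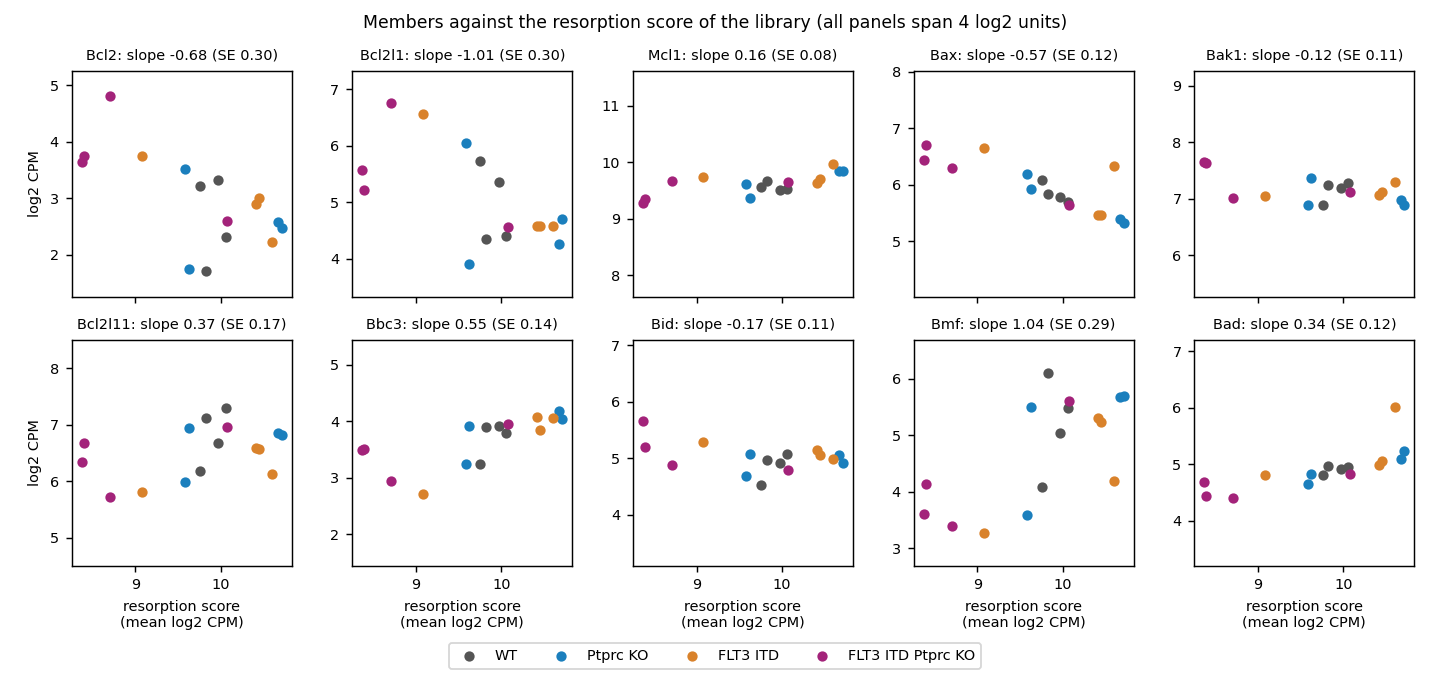
Each member against the resorption score of its library. Both axes are log2 CPM, every vertical axis spans 4 log2 units, points are libraries coloured by genotype, and the slope in each title is that of the edgeR fit with genotype in the model. Bax and Bcl2l1 run downward, Bmf and Bbc3 upward, and the low scores are mainly 3 double mutant libraries and FLT3 ITD replicate 4.

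Several members were at their extreme in the same cultures. WT replicate 3, Ptprc KO replicate 4, FLT3 ITD replicate 4 and double mutant replicate 2 each had the highest Bcl2l1 of their genotype. Each of the 4 also had the lowest Bcl2l11, Bmf and Bbc3 of its genotype. Bcl2l1 was therefore 1.24, 1.83, 2.98 and 3.62 times as high per length as Bcl2l11 in these libraries, whereas the median over all 16 was 0.513 and the lowest 0.210. The ratio of Bcl2l1 to Bmf, per length, ran from 0.336 in WT replicate 1 to 11.9 in double mutant replicate 2. These libraries also had the highest mean of the 7 macrophage markers in their genotype: 8.85 log2 CPM in WT replicate 3 (the others 6.71 to 8.06), 8.89 in Ptprc KO replicate 4 (6.69 to 7.33), 8.87 in FLT3 ITD replicate 4 (6.04 to 6.94) and 9.20 in double mutant replicate 2 (6.96 to 8.14). The part of macrophages in the members' levels was not tested. Summed neutrophil markers were highest of their genotype in these 4 libraries, at 64.7, 138, 79.5 and 9.89 CPM. Double mutant replicate 4 was close to replicate 2, at 9.09 CPM, and by mean log2 CPM of the neutrophil markers it was higher (-0.25 against -0.47). Summed T cell markers, nearly all Cd4, were also highest of their genotype in these 4 libraries, at 46.3, 46.5, 9.32 and 6.26 CPM. Summed dendritic cell markers, mostly Itgax, were highest of their genotype in 3 of the 4, at 40.4, 156 and 428 CPM, but not in WT replicate 3 (43.2 CPM). By mean log2 CPM of the 3 dendritic cell markers tested, only double mutant replicate 2 (3.42) was highest of its genotype. WT replicate 3 was at 1.39 (WT replicate 4 at 1.55) and Ptprc KO replicate 4 at 1.41 (Ptprc KO replicate 2 at 2.19). FLT3 ITD replicate 4 was at 2.09 (FLT3 ITD replicate 3 at 2.49). Of the T cell markers, Cd3e, Cd3d, Cd3g and Cd8a never exceeded 3 counts. The part of cells that carry these markers was not tested either.

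Likeness of pattern was measured by Pearson's r of log2 CPM over the 16 libraries (4 of each genotype), among 9480 genes at a mean of at least 5 CPM, and is a description without a p. Closest to Bcl2l1 were Ms4a6d (0.98), Pla2g7 (0.98) and Ets2 (0.97), and closest to Bcl2 were Rps6ka2 (0.95), Sec22c (0.94) and Naa60 (0.93). Mcl1 was most like Erlec1 (0.96), Ube2b (0.95) and Rab12 (0.94). Bcl2l11 was most like Gbp7 (0.96), Dhx40 (0.95) and Zfyve28 (0.95), and Bmf most like Strip2, Fhip1b and Rnf24 (0.96 each). Between members, after removal of the genotype means, r was -0.92 for Bcl2l1 with Bcl2l11 and -0.88 with Bmf, 0.90 for Bcl2l1 with Bcl2, and 0.91 for Bcl2l11 with Bmf.

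The rest of the family and the pathway around it followed the same outline: no gene of the lists below was called between genotypes by edgeR. On the resorption score, where 41.2% of all genes were called (20.7% upward and 20.5% downward), the lists ranged from 7 of 21 genes (regulators) to 5 of 7 (survival receptors). At an unadjusted p under 0.05, the double mutant against FLT3 ITD gave 2 of 13 rows for other family genes, 5 of 16 apoptosome and caspase genes, 1 of 12 death receptor genes, 5 of 11 p53 targets, 6 of 21 regulators and 3 of 7 survival receptors, beside 25.7% of all genes. The median slopes on the score were 0.18, 0.23, -0.26, -0.10, -0.12 and 0.46 for these lists in the same order, beside -0.039 for all genes tested. Of 13 tested rows for other family genes (Bcl2l2 has 2), 6 were called on the score, beside 41.2% of all genes, 5 of them upward. Pmaip1, the p53-induced BH3-only gene of Noxa, had a slope of 1.39 (SE 0.28), and the mitophagy receptors Bnip3 and Bnip3l had 1.25 (SE 0.27) and 0.52 (SE 0.11). Bok, a relative of Bax, had 1.70 (SE 0.38) at a mean of 2.28 CPM, Bcl2l13 0.27 (SE 0.10), and Bcl2l12 fell with -0.41 (SE 0.11). Reads of the near-identical copies Bcl2a1a, Bcl2a1b and Bcl2a1d may be shared between them, and these 3 were not called. Between genotypes, Bok was lower in the double mutant than in FLT3 ITD by -2.58 (SE 0.87) without passing (adjusted p = 0.122).

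Downstream of the mitochondria, 6 of 16 apoptosome and caspase genes were called on the score, beside 41.2% of all genes, 5 of them upward. Cycs, the gene of cytochrome c, had a slope of 0.54 (SE 0.17), the mitochondrial genes Aifm1 and Endog 0.57 (SE 0.12) and 0.78 (SE 0.14), the executioner Casp6 0.46 (SE 0.11) and the inhibitor Birc2 0.45 (SE 0.10). Apaf1, the scaffold that cytochrome c activates, fell with -0.49 (SE 0.13), and it was higher in the double mutant than in FLT3 ITD by 1.02 (SE 0.28) without passing the threshold (adjusted p = 0.108). Of 12 death receptor genes, 6 were called (41.2% of all genes), 4 downward. Fas and Tnfrsf1b fell with -1.65 (SE 0.30) and -1.65 (SE 0.44), Tnfrsf1a and its adaptor Tradd with -0.43 (SE 0.09) and -0.27 (SE 0.094), while Casp8 rose with 0.23 (SE 0.053) and Mlkl with 0.36 (SE 0.14).

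Of 21 genes that act on the family, 7 were called on the score, a smaller share than the 41.2% of all genes, 5 of them downward. Trp53, the gene of p53, fell with -0.38 (SE 0.087), the STAT5 target kinase Pim1 with -1.59 (SE 0.37), Stat5a and Stat5b with -0.35 (SE 0.10) and -0.43 (SE 0.10), and Akt2 with -0.18 (SE 0.049). Cblb, a ubiquitin ligase, rose with 0.68 (SE 0.10) and Ddit3, a stress-induced transcription factor, with 0.48 (SE 0.16). Of 11 p53 targets outside the family, 6 were called (41.2% of all genes), 3 each way: Perp, Trp53inp1 and Sesn2 rose with 1.95 (SE 0.18), 1.08 (SE 0.18) and 0.69 (SE 0.25), and Cdkn1a, Mdm2 and Aen fell with -0.69 (SE 0.12), -0.65 (SE 0.14) and -0.43 (SE 0.10). Among 7 receptors and adaptors of survival signals, 5 rose (20.7% of all genes did): Src 0.83 (SE 0.13), Itgb3 0.97 (SE 0.18), Tnfrsf11a, the receptor of RANKL, 0.42 (SE 0.091), Traf6 0.46 (SE 0.10) and Kit 0.77 (SE 0.19). Csf1r, the receptor of M-CSF, had a slope of 0.009 (SE 0.16), and Flt3 itself reached at most 41 counts in a library. The double mutant had less Itgb3 than FLT3 ITD by -1.64 (SE 0.48) and than Ptprc KO by -1.61 (SE 0.48), neither passing the threshold (adjusted p of 0.11 and 0.183).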

How the data were processed

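RNA from 16 cultures was sequenced after poly(A) selection from 500 ng of RNA with a directional kit and adaptors carrying molecular identifiers, per the labels' protocols. The authors deposited raw counts per gene and, in a second table, TPM, whose relative values differ from those of the counts (Mcl1 is highest in FLT3 ITD replicate 2 by CPM and not by TPM). Per the submitters' processing notes, featureCounts 2.0.3, STAR 2.7.6a (on GRCm38.p6), UMI-tools 1.1.1, cutadapt 4.2 and bcl2fastq 2.20.0.422 were used. Their order and settings, strand included, are not given in the sources used here.

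The counts were fitted with edgeR 4.0.16 in R 4.3.3 (filterByExpr, 12093 genes, TMM, robust quasi-likelihood, all 16 libraries, two-sided, Benjamini-Hochberg over all genes tested, threshold 0.05). Replicates varied by a coefficient of 0.37 (common dispersion of 0.137, 12 residual degrees of freedom). Log2 CPM use a prior count of 2. Alternatives were RLE factors, 2 other filters, a replicate block, fits of only the groups compared, DESeq2 1.42.0, limma 3.58.1 on log2(TPM + 1) and log2(TPM + 0.1) at a mean TPM of at least 1, the score as a covariate, FLT3 ITD replicates 1 and 3 summed, and each library left out. Summing those and also leaving out replicate 2 was added after seeing the data. Scripts were tested on simulated counts.

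The members and gene lists were chosen with earlier results of these data known. All members are named. Of other lists, genes past the threshold were named, or else up to 2 with the smallest p at a mean of at least 1 CPM. For likeness, the 3 genes with the highest r were named, without predicted gene models.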

Additional observations from a re-analysis of the deposited data

Results flagged for a closer look

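In 5 of the 40 combinations of a member and a genotype, a library lay farther from the other 3 than Dixon's criterion allows at 95% (chance gives about 1 in 20). The share over all genes was not computed, so the count cannot be read as particular to the members. The 5 fall in 3 libraries and members move together, so the 40 combinations are not independent. Bcl2l1 in FLT3 ITD replicate 4 was 6.573 log2 CPM, that is 95.2 CPM against 23.8 to 24.0 CPM in the other 3, of which replicates 1 and 3 are the close pair whose independence the labels do not state. Bbc3 in the same library was 2.705 log2 CPM, or 6.45 CPM against 14.2 to 16.7 CPM. In Ptprc KO replicate 4, Bmf was 3.585 log2 CPM (11.9 CPM against 45.2 to 52.1 CPM) and Bcl2l11 was 5.986 log2 CPM (63.3 CPM against 112 to 122 CPM). Bbc3 in WT replicate 3 was 3.25 log2 CPM (9.45 CPM against 13.8 to 14.96 CPM). These 3 libraries are those with the highest macrophage marker mean of their genotype, whose part in these values was not tested.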

How the results depend on the processing

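Between genotypes, the count of members called stayed at 0 under every alternative run, except for the double mutant against FLT3 ITD. There DESeq2 called 1 (8.14% of all genes) and the fits without 1 library called 0 to 1 (14.7% of all genes where it was 1). The count of 5 slopes called became 3 with the replicate block (23.8% of all genes), where Bcl2l1 (adjusted p = 0.0542) and Bad (0.163) were no longer called. Without 1 library each it ran from 1 (without FLT3 ITD replicate 4, 26.5% of all genes) to 7 (without Ptprc KO replicate 1, 41.2%). Limma on log2(TPM + 1) did not call the Bad slope (0.0584), summing FLT3 ITD replicates 1 and 3 without replicate 2 did not call that of Bcl2l1 (0.0667), and DESeq2 also called that of Bcl2 (0.0477), all as adjusted p. Counting limits little here, since every member had at least 93 counts in each library, and the spread between replicates sets the precision. The replicate numbers did not meet the rule for pairing (r over 0.1 in every pair): deviations of same-numbered libraries had a median r of 0.075 (-0.63 to 0.85), and 8 of 16 libraries were closest to one of their own number, where 4 would be if numbers had no bearing. The causes of the changes of sign below, all of values that did not pass the threshold, were not tested.

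The resorption score is partly confounded with the double mutant genotype. With this score as a covariate, log2 fold changes that turned sign were, for FLT3 ITD against WT, Bbc3 -0.17 and Bak1 0.0088. For Ptprc KO against WT they were Bcl2 0.094, Bcl2l1 0.11, Bax 0.00096 and Bad -0.041. For the double mutant they were, against WT, Bcl2l1 -0.38, Mcl1 0.086, Bbc3 0.33, Bax -0.15 and Bad 0.033, and against FLT3 ITD, Bcl2 -0.00041, Bmf 0.95, Bcl2l1 -0.65, Bid -0.16, Bbc3 0.50 and Bax -0.47. Against Ptprc KO they were Bmf 0.28, Bcl2l11 0.26, Bcl2l1 -0.49, Mcl1 0.021, Bbc3 0.33, Bax -0.15 and Bad 0.074, and for the interaction Bcl2 -0.095, Bmf 1.29, Bcl2l1 -0.76, Bid -0.26, Bbc3 0.50 and Bax -0.47.

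With limma on log2(TPM + 1), and with 0.1 in place of 1, they were for FLT3 ITD against WT Bcl2l1 -0.12 and -0.13, Mcl1 -0.046 in both, Bid -0.0125 and -0.0127, Bbc3 -0.24 and -0.25, and Bax -0.10 in both. For Ptprc KO against WT they were Bid -0.0503 and -0.0517, and Bad -0.042 and -0.043, for the double mutant against FLT3 ITD Bbc3 0.017 and 0.021, and for the interaction Bmf 0.10 and 0.12. The replicate block gave Bbc3 -0.053 (FLT3 ITD against WT), Bmf 0.069 and Bid -0.035 (interaction) and a Bak1 slope of 0.00095. The Bid interaction, 0.00066, also turned to -0.0403 with RLE factors, -0.0398 with DESeq2, -0.00959 without a filter and -0.00781 at a mean count of at least 50.

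With FLT3 ITD replicates 1 and 3 summed, the values were Bbc3 -0.047 (FLT3 ITD against WT), Bmf 0.0076 (double mutant against FLT3 ITD), and Bmf 0.034 and Bid -0.00772 (interaction). With replicate 2 also left out they were Bbc3 -0.27 (FLT3 ITD against WT), Bcl2l1 -0.13, Bid -0.021 and Bbc3 0.048 (double mutant against FLT3 ITD), and Bcl2l1 -0.037 and Bid -0.074 (interaction).

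Without 1 library each, values that turned sign ranged, for Ptprc KO against WT, from -0.29 to 0.34 (Bmf), -0.50 to 0.17 (Bcl2), -0.77 to 0.20 (Bcl2l1), -0.051 to 0.12 (Bid), -0.28 to 0.018 (Bax) and -0.042 to 0.14 (Bad). For FLT3 ITD against WT the ranges were -0.11 to 0.013 (Bak1), -0.12 to 0.26 (Bbc3), -0.041 to 0.51 (Bcl2), -0.50 to 0.60 (Bcl2l1) and -0.038 to 0.38 (Bax). For the double mutant against FLT3 ITD they were -0.97 to 0.027 (Bmf), -0.16 to 0.16 (Bid), -0.21 to 1.18 (Bcl2l1) and -0.0101 to 0.38 (Bcl2l11). For the interaction they were -0.21 to 0.11 (Bid), -0.94 to 0.056 (Bmf) and -0.11 to 1.28 (Bcl2l1).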
